A study of Mus musculus with 3 samples.

Results

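Barcodes with neuronal but no proliferation mRNA were described in medulloblastomas of 3 G-Smo mice, each treated with palbociclib. They are barcodes with at least 200 counts and at most 10% mitochondrial counts that held at least 3 summed counts from at least 2 of 9 neuronal genes (Neurod1, Cntn2, Stmn2, Stmn3, Gap43, Meg3, Grin2b, Celf4 and Rbfox3) and 0 counts of Mki67, Top2a, Smc2 and Cenpf. Of 20959 barcodes, 1981 passed the count and mitochondrial limits, and 282 of these met the rule, 142 in tumour 1, 8 in tumour 2 and 132 in tumour 3. The reference was 316 barcodes (170, 15 and 131) that passed the same limits and held 0 counts of all 13 rule genes. A second comparison used 171 barcodes (69, 9 and 93) that met the neuronal criterion and held at least 1 count of the 4 proliferation genes.

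All 3 mice carried hGFAP-Cre and SmoM2 on a C57BL/6 background: the GFAP promoter drives Cre in neural stem and progenitor cells, and Cre turns on SmoM2, an always active form of the Hedgehog receptor component Smoothened. Each received palbociclib, which blocks CDK4 and CDK6, kinases that drive entry into S phase, packed in polyoxazoline nanoparticles (POx-palbo), as 5 daily intraperitoneal doses of 25 mg/kg from postnatal day 10, and the tumour was taken on postnatal day 16. The tumours form 1 group, untreated tumours are not analysed here, and every comparison below is between barcodes of the same tumours. Polyadenylated RNA was counted per barcode by Drop-seq, in which a cell is caught in a droplet with a barcoded bead.

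Cerebellar granule neurons arise from progenitors that divide at the surface of the young cerebellum under Hedgehog signalling. As they leave the cell cycle they switch on factors such as Neurod1, build axons from microtubules and their binding proteins, migrate inward and form synapses. Medulloblastomas driven by Hedgehog signalling come from these progenitors, and cells in them can start along the same path.

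Libraries were shallow and unequal. They held 8827, 2330 and 9802 barcodes with 1150463, 248617 and 1324350 counts in tumours 1, 2 and 3, and medians of 84 to 105 counts per barcode. The proliferation-free neuronal barcodes summed to 63386, 2009 and 47170 counts, and the reference to 59540, 3551 and 39731. Tumour 2 thus stood apart, and results are given with and without it. No barcode past the limits was shared between libraries, while 3, 8 and 3 were shared among all barcodes of tumours 1 and 2, 1 and 3, and 2 and 3.

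Proliferation-free neuronal barcodes made up 14.7% of the barcodes past the limits in tumour 1 (exact 95% interval 12.6 to 17.1), 8.60% in tumour 2 (3.79 to 16.2) and 14.3% in tumour 3 (12.1 to 16.7), a mean of 12.5% ± 3.42 (SD, n = 3). The intervals overlap, and they cover counting error only. Median depth was 381.5, 243.5 and 314.5 counts in these barcodes against 292.5, 240 and 262 in the reference. The share of barcodes past the neuronal criterion grew with depth in all 3 tumours, from 17.7% at 200 to 299 counts to 29.7% at 500 or more in tumour 1, and from 18.7% to 32.0% in tumour 3. With every barcode thinned to 200 counts, the share that met the whole rule was 8.62%, 8.60% and 10.1%, so the lower share of tumour 2 was not seen at equal depth.

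Neurod1, the transcription factor that drives granule cell differentiation, was the leading rule gene. It was detected in 235 of the 282 barcodes (83.3%) and gave 40.5% of their neuronal counts, at 47.3, 39.8 and 62.5 counts per 10000 in tumours 1, 2 and 3. Gap43, a growth cone protein, was found in 132 barcodes, and Cntn2 (also TAG-1), the adhesion molecule of young granule cell axons, in 107. The next were the tubulin regulator Stmn2 in 100, the splicing regulators Celf4 in 97 and Rbfox3 in 80, the imprinted RNA Meg3 in 40, the glutamate receptor subunit Grin2b in 37 and Stmn3 in 25. Neurod1 with Gap43 was the most frequent pair, in 104 barcodes, ahead of Neurod1 with Celf4 in 81, with Cntn2 in 80 and with Stmn2 in 78. The barcodes were chosen by these values, which are given as a description with no test.

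Most of the 282 barcodes lay close to the threshold. In 69 of them the neuronal sum was 3 counts, in 76 it was 4, and the highest sum was 18. Only 2 of the 9 genes were detected in 95 barcodes, 3 in 115, 4 in 51, and 5 or 6 in the other 12 and 9. Barcodes just inside, with 3 counts, had a median depth of 275 counts and gave 0.893% of counts to the 9 genes. Just outside were 158 proliferation-free barcodes with 2 counts (median depth 285, 0.592% of counts) and 23 with at least 3 counts of a single gene (median depth 251, 1.28%).

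The label was checked with markers outside the rule. Granule neuron markers other than the rule genes stood at 71.6, 101 and 73.8 summed counts per 10000 in proliferation-free neuronal barcodes of tumours 1, 2 and 3, against 39.3, 45.1 and 37.8 in the reference and 43.7, 42.5 and 38.3 in barcodes of 50 to 99 counts, below the limit; what these shallow barcodes hold was not tested. The lowest neuronal value was thus above the highest value of either other class. Gabra6, a receptor subunit of mature granule neurons, had 0 counts in these barcodes and in the reference. Of the 16 granule neuron markers 8 were tested against the reference, all with a positive log2 fold change. Only Nhlh1 and Tubb3 passed. Zic1 and Nfix gave 188 and 169 of the list's 811 counts. Purkinje cell markers (17 counts in all), inhibitory interneuron markers (4) and unipolar brush cell markers (12) were near 0, with Gad2, Slc32a1, Slc6a5 and Pax2 at 0. The reference held 17, 7 and 6 counts of these lists, so they were low in both classes. The rule genes chose the barcodes, so their levels cannot check the label granule-neuron-like. The label goes with the summed granule neuron markers outside the rule, in tumour 2 on 20 counts against 16. That list shares Tubb3 and Dcx with the axon and cytoskeleton list, and the granule lineage factors Zic1, Barhl1 and Pax6 did not pass. The word granule in the label thus rests on less than the word neuron.

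**Figure D1:**
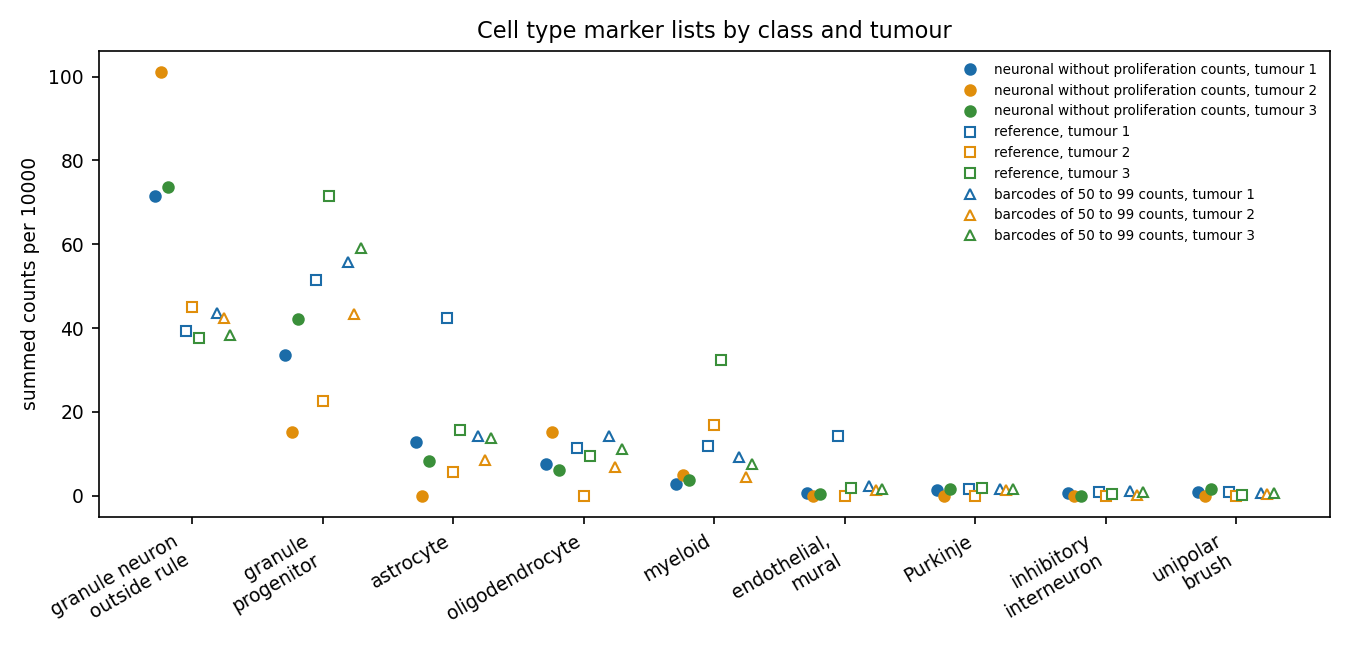
Summed counts of cell type marker lists per 10000 counts of each class, by tumour. Filled circles are proliferation-free neuronal barcodes, open squares the reference and open triangles barcodes of 50 to 99 counts; granule neuron markers outside the rule stand at 71.6, 101 and 73.8 in the neuronal barcodes, while myeloid and astrocyte markers stand higher in the reference in all 3 tumours and endothelial markers in tumours 1 and 3.

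Barcodes called as other cell types also met the criterion. Of 1981 barcodes past the limits 453 (22.9%) met the neuronal criterion, and so did 4 of 27 barcodes called myeloid (14.8%, exact interval 4.19 to 33.7, median depth 380 counts), 11 of 62 called astrocyte (17.7%, median depth 692.5) and 5 of 21 called oligodendrocyte (23.8%, median depth 574). None of 9 called endothelial or mural met it (exact upper bound 33.6%, median depth 1010). Of the 282 barcodes 9 carried a call for another type, and of the 316 reference barcodes 29. Neurod1 stood at 22.3 counts per 10000 in barcodes of 50 to 99 counts. Whether free RNA, doublets or the cells' own mRNA gave these counts was not tested, and the results below rest on sums over each class.

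Against the reference, the proliferation-free neuronal barcodes were richer in genes that build and stabilise axons, in genes of synapses and cell adhesion, and in a few granule lineage transcription factors. They held less of the chromatin remodeller Hells, the centromere factor Hjurp, the heterochromatin protein Cbx5 and the progenitor gene Sfrp1. They also held less of Apoe and of several myeloid, endothelial and astrocyte genes. Of 2393 genes outside the rule, 49 were higher (2.05%) and 26 lower (1.09%), or 3.13% in either direction, at an adjusted p under 0.05 in edgeR's quasi-likelihood test, with the tumour as a block. The median log2 fold change over all genes was -0.01, and 27 of the higher and 12 of the lower genes moved the same way in 3 of 3 tumours. These genes were called from the same sums, and the share of all 2393 genes that did so was not counted. Nor was the share of all genes whose classes did not overlap, which is given below for single genes. All 49 and 26 were called again without tumour 2, which called 99 and 58 genes, but 0 and 1 were called without tumour 1 and none without tumour 3, where edgeR gave 18 and 20 genes at an unadjusted p under 0.05. DESeq2 called 1 higher and 2 lower, with 67 at that level.

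**Figure D2:**
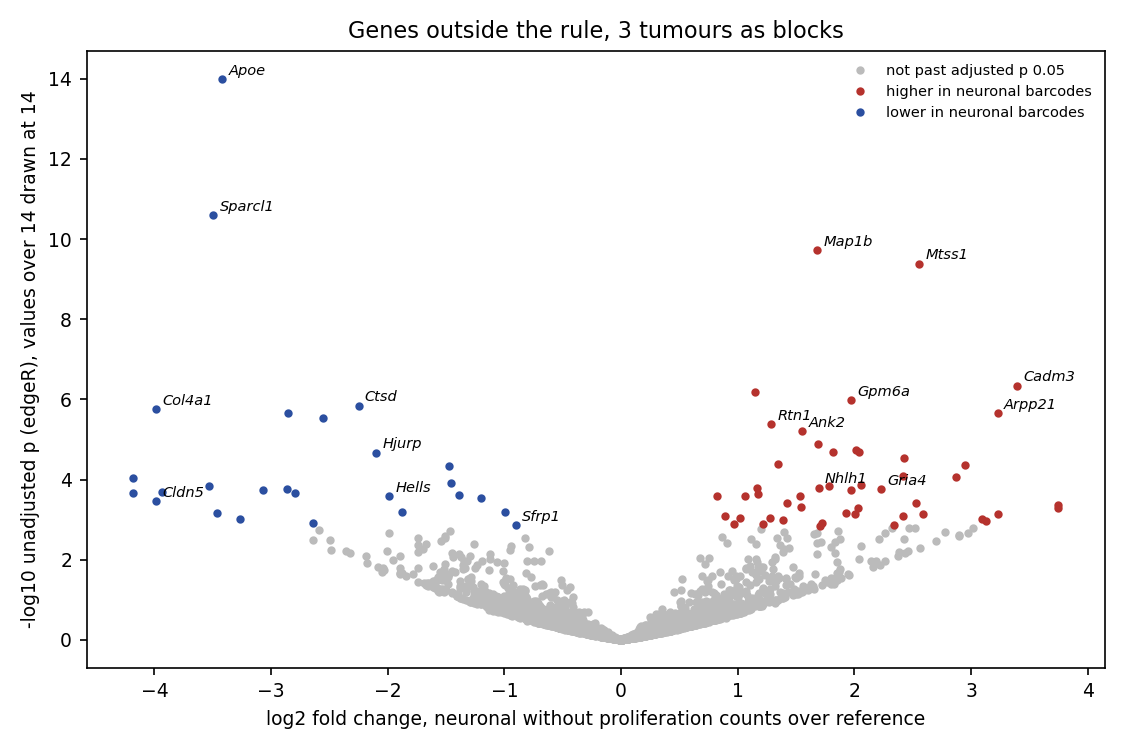
Each point is 1 of 2393 genes outside the rule: log2 fold change between proliferation-free neuronal barcodes and the reference (x axis) against -log10 of the unadjusted p from edgeR (y axis). Red and blue points are the 49 higher and 26 lower genes; the axon protein gene Map1b and the scaffold gene Mtss1 lead on the right and Apoe on the left.

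Among the neuronal lists, axon and cytoskeleton genes had the most calls: 13 of 35 measured list genes were higher and none lower, their median log2 fold change was 1.14 against -0.01 for all genes, and 33 of 35 had a positive value. Map1b, a microtubule protein of growing axons, had 201, 8 and 117 counts in the neuronal barcodes of tumours 1, 2 and 3 and 55, 7 and 30 in the reference. That is 32.1, 40.4 and 25.2 against 9.24, 19.7 and 7.55 counts per 10000. Every neuronal value lay above every reference value, and the log2 fold change was 1.68 ± 0.26 (SE, edgeR adjusted p = 1.51e-07). Tuba1a, the main alpha tubulin of young neurons, had 45.7, 15.2 and 51.0 counts per 10000 against 20.5, 22.5 and 20.6. It was higher in tumours 1 and 3 and not in tumour 2, where it had 3 counts, and its log2 fold change was 1.14 ± 0.23 (edgeR adjusted p = 0.000260).

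Further axon genes followed the same order. Rtn1, a reticulon of the neuronal endoplasmic reticulum, stood at 22.0, 25.3 and 17.2 counts per 10000 against 10.2, 8.45 and 5.54 (log2 fold change 1.29 ± 0.28). Ank2, an ankyrin that ties membrane proteins to the axonal skeleton, stood at 13.1, 20.2 and 9.90 against 5.54, 5.63 and 2.01 (1.55 ± 0.34). In both genes the classes did not overlap. Stmn4, a stathmin that binds free tubulin, was higher in tumours 1 (42 against 6 counts) and 3 (32 against 6) but not in tumour 2 (1 against 4), with a log2 fold change of 2.02 ± 0.47. Also called were Tubb2b (2.05), Dpysl3 (1.97), Tubb3 (1.42), Map6 (2.59), Mapt (2.00), Map2 (1.01), Basp1 (1.27) and the kinesin light chain Klc1 (2.34), as log2 fold changes with edgeR adjusted p from 0.0113 to 0.0451. Tuba1a, Tubb2b and Tubb3 share sequence with other tubulins, so counting could split their reads. Dcx, the microtubule protein of migrating neurons, had 45, 0 and 24 counts against 21, 0 and 5 and did not pass (adjusted p = 0.0711).

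**Figure D3:**
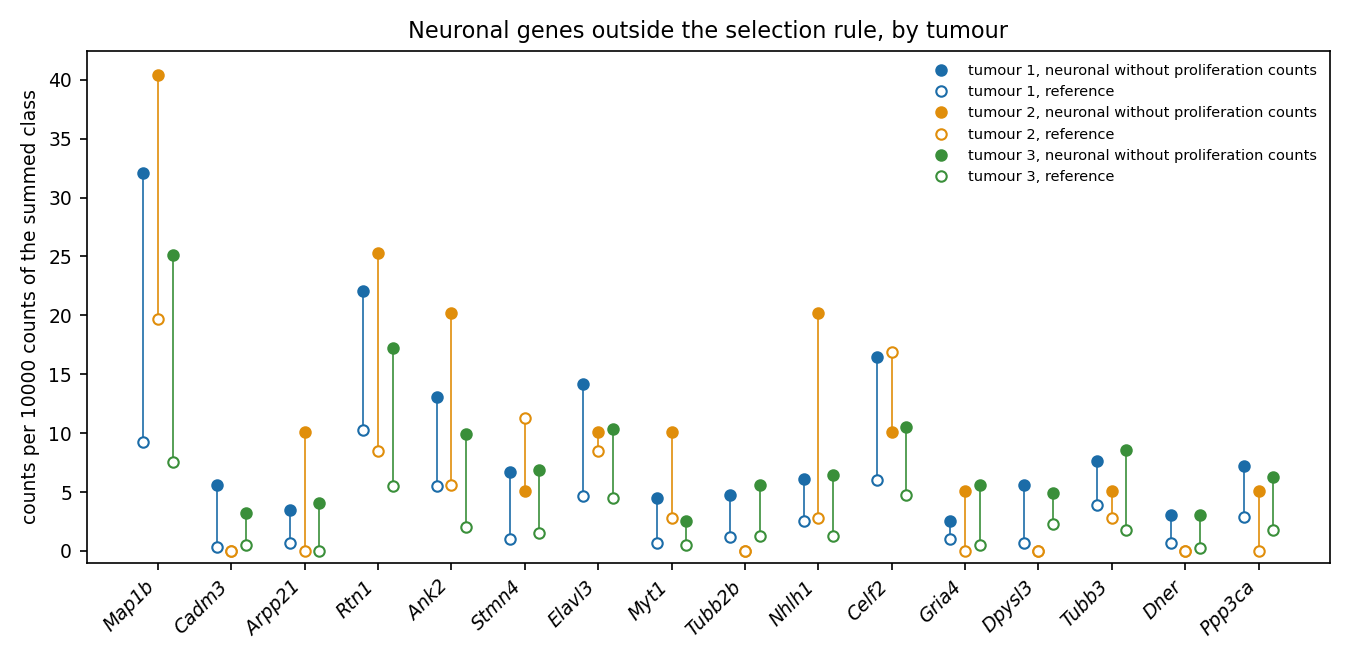
Levels of called genes of the axon, adhesion, synapse, RNA-binding and transcription factor lists, in counts per 10000 of each summed class, with 1 line per tumour. Filled circles are proliferation-free neuronal barcodes and open circles the reference; in tumours 1 and 3 every filled circle lies above its open one, and in tumour 2, with 2009 counts, some do not. Genes not drawn include Tuba1a and Nfib, which have higher levels.

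Synapse and excitability genes came next, with 6 of 21 measured genes higher, none lower and a median log2 fold change of 0.99. Arpp21, a cyclic AMP regulated phosphoprotein of neurons, had 22, 2 and 19 counts against 4, 0 and 0 (log2 fold change 3.23 ± 0.68, edgeR adjusted p = 0.000490). Gria4, a subunit of AMPA type glutamate receptors, had 16, 1 and 26 against 6, 0 and 2 (2.23 ± 0.59). Both were higher in 3 of 3 tumours. Gria2 (0.97), Nrxn2 (1.93) and the calcineurin subunit Ppp3ca (1.54) were also called. Snap25, a vesicle fusion protein, had 48, 0 and 14 counts against 23, 1 and 5 and did not pass (adjusted p = 0.291).

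Outside this list, the vesicle protein Syp had 19 counts against 1, a ratio of 17.6 with an exact counting interval of 2.80 to 731, and the granin Chgb had 26, 0 and 24 against 3, 1 and 4. Kcnj3, a potassium channel subunit, had 12, 2 and 7 counts against 1, 0 and 1, a ratio of 9.72 with a counting interval of 2.38 to 85.5. The intervals are wide because the reference held 1 or 2 counts of each.

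Adhesion and migration genes gave 3 higher of 15 measured and none lower, with a median log2 fold change of 0.97. Cadm3, an adhesion molecule of nerve cells, had 35, 0 and 15 counts against 2, 0 and 2, with a log2 fold change of 3.40 ± 0.67 (edgeR adjusted p = 0.000217). Dner, a neuronal membrane protein that binds Notch, had 19, 0 and 14 against 4, 0 and 1, and Sez6l2 had 15, 1 and 6 against 1, 0 and 1. Mtss1, a membrane-bending actin scaffold that is on no list, gave the second smallest p among the higher genes: 61, 4 and 58 counts against 10, 0 and 9, or 9.74, 20.2 and 12.5 against 1.68, 0 and 2.27 per 10000 (2.55 ± 0.41, adjusted p = 2.45e-07). Gpm6a, a membrane protein of growth cones and filopodia, had 75, 3 and 30 counts against 16, 1 and 8 (1.97 ± 0.40). The classes did not overlap in Mtss1, and the same held for Gpm6a, in tumour 2 on 3 against 1 counts.

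Neural RNA-binding proteins gave 3 higher of 16 measured. Elavl3, a neuronal Hu protein that stabilises transcripts, had 89, 2 and 48 counts against 28, 3 and 18 (log2 fold change 1.35 ± 0.33, edgeR adjusted p = 0.00467), and the splicing regulators Celf2 (1.17) and Celf5 (3.23) were also called. Elavl4, another Hu gene, had 28, 0 and 22 counts against 8, 0 and 9 and did not pass (adjusted p = 0.117). The noncoding RNA A930011O12Rik had 18, 1 and 17 counts against 3, 0 and 1, and Gas5, which hosts small nucleolar RNAs, was lower (23, 0 and 15 against 51, 0 and 40).

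Of the granule lineage transcription factors, 3 of 23 measured were higher, none was lower, and the median log2 fold change was 0.60. Nhlh1, a basic helix-loop-helix factor of newborn neurons, had 38, 4 and 30 counts against 15, 1 and 5. It stood at 6.07, 20.2 and 6.45 counts per 10000 against 2.52, 2.82 and 1.26, with no overlap, and its log2 fold change was 1.69 ± 0.45 (edgeR adjusted p = 0.0122). Nfib, a factor of granule neuron maturation, had 384, 7 and 207 counts against 195, 15 and 91 (0.82 ± 0.22), higher in tumours 1 and 3 only. Myt1, a zinc finger factor of neuronal commitment, had 28, 2 and 12 against 4, 1 and 2 (2.42 ± 0.61). The lineage identity factors Zic1 (95, 4 and 89 against 67, 3 and 51, adjusted p = 0.404), Barhl1 (26, 5 and 25 against 22, 5 and 17, 0.845) and Pax6 (40, 2 and 30 against 24, 0 and 11, 0.228) did not pass, and both classes held their mRNA.

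Neurod1 and its relatives bind E-boxes, and the upstream bases of called genes were searched for the E-boxes CAGATG and CAGCTG on both strands. The latter is its own reverse complement, and neither motif holds the other. Shown are the 250 bases before the annotated start of 3 higher genes with a single listed start, from RefSeq (GRCm38.p6), 5' to 3' on the gene's strand, with the E-box in capitals. Map1b and Nhlh1 hold CAGATG, at -213 and -203 from the start, and Elavl3 holds CAGCTG at -43. The windows are chr13:99516603-99516852 (minus strand), chr1:172057597-172057846 (minus) and chr9:22052024-22052273 (minus).
Map1b: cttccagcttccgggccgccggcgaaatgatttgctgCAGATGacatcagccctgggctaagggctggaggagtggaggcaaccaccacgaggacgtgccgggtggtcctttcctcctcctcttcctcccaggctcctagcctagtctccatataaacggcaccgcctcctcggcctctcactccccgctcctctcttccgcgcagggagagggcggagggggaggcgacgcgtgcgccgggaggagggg
Nhlh1: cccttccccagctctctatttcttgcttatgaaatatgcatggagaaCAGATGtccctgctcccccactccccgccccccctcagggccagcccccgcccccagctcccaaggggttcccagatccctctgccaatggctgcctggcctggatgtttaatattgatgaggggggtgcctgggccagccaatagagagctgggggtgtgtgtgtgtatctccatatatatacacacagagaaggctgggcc
Elavl3: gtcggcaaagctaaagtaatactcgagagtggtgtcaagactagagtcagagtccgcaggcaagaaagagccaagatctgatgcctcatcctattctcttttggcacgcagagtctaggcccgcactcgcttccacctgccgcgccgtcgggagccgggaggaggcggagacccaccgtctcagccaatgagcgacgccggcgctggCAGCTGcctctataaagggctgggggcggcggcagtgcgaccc

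Either motif was found for 10 of the 33 higher genes with a RefSeq entry (30.3%), for 21.8% of the 1807 tested genes with an entry, and in 25.5% of all 32851 promoter windows of this length; a gene with several starts counted if any window matched. Of all windows, 4745 hold CAGATG and 4271 hold CAGCTG. The share in the higher genes is near these backgrounds and is a description of letters only. Cadm3, Tuba1a and Gria4, with 1 listed start each, hold neither motif in this window.

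Few genes of growth and division passed the test. All 16 measured DNA replication genes had a negative log2 fold change, with a median of -1.19, but only Hells, a chromatin remodeller of replicating cells, passed (7, 1 and 4 counts against 31, 0 and 15, -1.99 ± 0.54, edgeR adjusted p = 0.0140). Summed, the replication list stood at 32.3, 30.3 and 33.8 counts per 10000 against 67.3, 33.8 and 79.5 in the reference and 62.3, 52.8 and 62.3 in barcodes of 50 to 99 counts. The neuronal barcodes were lowest in each tumour, by a small margin in tumour 2. The helicase subunits Mcm3 (2, 0 and 2 against 11, 0 and 11, adjusted p = 0.0745) and Mcm6 (3, 0 and 7 against 16, 1 and 13, 0.107) did not pass.

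Of the mitosis list, which leaves out the 4 rule genes, 1 of 16 measured genes was lower and the median was -0.53. That gene was Hjurp, the chaperone that loads the centromeric histone, with 8, 0 and 8 counts against 26, 0 and 37 (-2.10 ± 0.49, edgeR adjusted p = 0.00269). Absence of the 4 rule genes did not mean absence of other mitosis mRNA: the list gave 201, 6 and 194 counts in the proliferation-free neuronal barcodes, or 32.1, 30.3 and 41.7 per 10000, against 47.7, 50.7 and 71.2 in the reference and 73.2, 76.4 and 90.5 in barcodes of 50 to 99 counts.

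Hedgehog and progenitor genes gave 1 lower of 6 measured, with a median of -0.83. Sfrp1, a Wnt antagonist made by granule progenitors, had 41, 0 and 57 counts against 71, 2 and 91, lower in 3 of 3 tumours (-0.90 ± 0.28, edgeR adjusted p = 0.0451); its sign turned to 0.16 in barcodes of at least 500 counts. Atoh1, the progenitor identity factor (5, 0 and 8 against 11, 1 and 8), and Mycn (15, 1 and 22 against 19, 0 and 12) did not pass. Ptch1, a Hedgehog receptor and target, had 0 counts in the neuronal barcodes.

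In the CDK4 and CDK6 pathway, the drug's target, none of 6 measured genes passed. An unadjusted p under 0.05 was reached by 1 gene in edgeR and by 0 in DESeq2, which also called none. Ccnd1, the cyclin partner of both kinases induced by Hedgehog signalling, had 37, 1 and 22 counts against 64, 1 and 41 (-0.94 ± 0.33, edgeR adjusted p = 0.0953), and without tumour 2 the pathway's count of lower genes was 1. Ccnd2 (108, 1 and 83 against 121, 4 and 113), Cdk4 (28, 2 and 27 against 29, 3 and 20) and the inhibitor Cdkn1b (22, 2 and 28 against 21, 1 and 6) did not pass.

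Growth genes gave 1 lower of 21 measured, a median of -0.72 and 2 positive values. Hspd1, the mitochondrial chaperonin, had 18, 3 and 18 counts against 52, 2 and 48 (-1.47 ± 0.36, edgeR adjusted p = 0.00478). The summed list stood at 63.9, 70.8 and 75.7 counts per 10000 against 107, 73.2 and 115. Among chromatin genes Chd3, a remodeller of the NuRD complex, was higher (42, 2 and 28 against 11, 2 and 3) and Cbx5 lower (32, 0 and 23 against 50, 3 and 61), and 26 of 28 did not pass. Of 15 stress and immediate early genes only the chaperone Hspa5 was lower (43, 0 and 39 against 73, 11 and 62). Mitochondrial genes took 3.78%, 6.27% and 4.45% of counts against 4.89%, 7.15% and 5.11%, lower in 3 of 3 tumours (mean difference -0.89 percentage points ± 0.22, SD; exact two-sided sign-flip p = 0.25, the smallest 3 tumours allow).

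Many of the lower genes were genes of other cell types held by the reference. Apoe, a lipid carrier of glia and macrophages, had 23, 0 and 28 counts against 129, 7 and 372 (-3.42 ± 0.29, edgeR adjusted p = 3.41e-28), and Sparcl1, an astrocyte and vascular matrix protein, had 7, 0 and 2 against 86, 1 and 14. Of the lists, 4 of 5 measured myeloid genes (among them C1qc, Ctss and Lyz2), 2 of 6 astrocyte genes (Sparcl1, Gja1) and 2 of 2 endothelial genes (Cldn5, Itm2a) were lower. None of 4 oligodendrocyte genes passed in edgeR or DESeq2 (1 and 0 at an unadjusted p under 0.05), and that list stood at 7.67, 15.2 and 6.24 counts per 10000 against 11.4, 0 and 9.56. Summed myeloid markers stood at 2.87, 5.06 and 3.87 counts per 10000 against 11.9, 16.9 and 32.5, and endothelial and mural markers at 0.64, 0 and 0.43 against 14.3, 0 and 1.76, with Pecam1, Flt1 and Kdr at 0 in the neuronal barcodes. Without the barcodes called as another type, Apoe gave -0.93 (adjusted p = 0.377), and the lysosomal proteases Ctsd and Ctsb turned to 0.20 and 0.09. Hjurp, Hells, Cbx5, Gas5, Hspd1 and Sfrp1 were still lower then (edgeR adjusted p from 0.00209 to 0.0370), and 29 of the 47 higher genes still tested were still higher.

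Axon and replication genes are described next by steps of the rule's own measure, the neuronal count, with no test. In proliferation-free barcodes of tumours 1 and 3 with 0, 1, 2, 3, 4 to 5, and 6 or more neuronal counts, axon and cytoskeleton genes took 166, 195, 244, 296, 323 and 356 counts per 10000 in tumour 1 and 139, 170, 215, 237, 277 and 339 in tumour 3. Replication genes took 67.3, 62.1, 43.3, 37.7, 29.9 and 31.3 in tumour 1 and 79.5, 56.4, 46.2, 44.6, 29.5 and 33.5 in tumour 3. Axon genes rank higher at each step in both tumours, and replication genes rank lower up to 4 to 5 counts. Other lists were less regular: synapse genes in tumour 1 took 82.5, 97.5, 120, 104, 148 and 152, and adhesion genes in tumour 3 took 31.5, 27.9, 38.6, 29.8, 37.1 and 64.5. Median depth over these steps was 292.5, 307, 291, 294, 353 and 589 counts in tumour 1 and 262, 257, 284, 269, 309 and 345 in tumour 3. It changed little up to 3 neuronal counts and was highest at 6 or more, and its part in the trend was not tested.

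**Figure D4:**
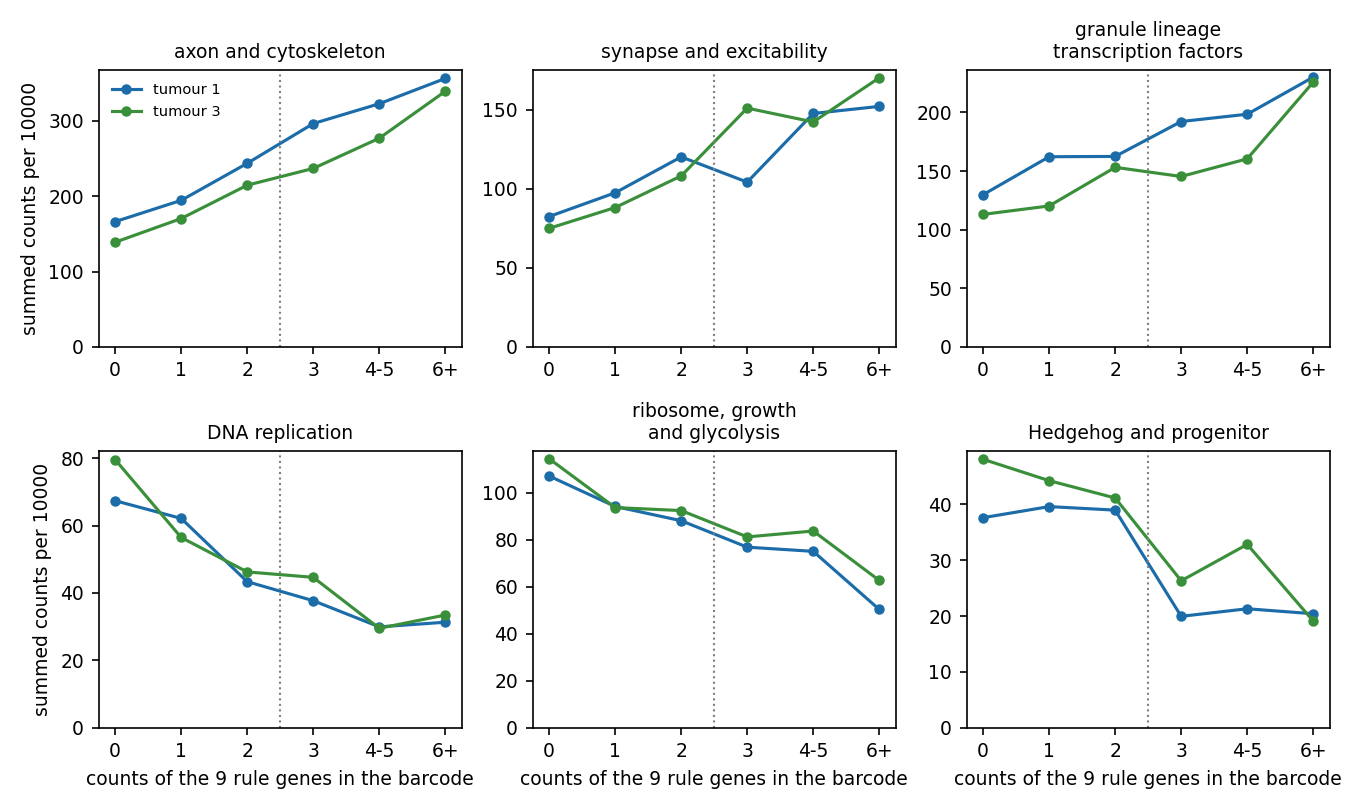
Summed list levels per 10000 counts in proliferation-free barcodes of tumours 1 and 3, by counts of the 9 neuronal rule genes; the dotted line marks the count threshold of the rule. Axon and cytoskeleton genes go from 166 to 356 and 139 to 339, and replication genes from 67.3 to 31.3 and 79.5 to 33.5; tumour 2, with 8 barcodes past the rule, is not drawn.

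Against neuronal barcodes that did hold proliferation counts, few genes passed the test. Spindle and kinetochore genes other than the 4 rule genes were lower in the proliferation-free barcodes, and the glutamate receptor gene Gria4 was higher. Neither axon genes nor transcription factors passed. Of 2282 genes, 1 was higher (0.0438%) and 8 lower (0.351%), or 0.394% in either direction, and all 8 belong to the mitosis list, where 25 genes were measured with a median log2 fold change of -1.84 against -0.02 for all genes. This comparison shares the proliferation-free barcodes with the one above. The class with proliferation counts was deeper, with medians of 471, 384 and 440 counts.

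Cenpe, the kinesin that links kinetochores to microtubules, had 9, 0 and 2 counts in the proliferation-free barcodes of tumours 1, 2 and 3 and 31, 4 and 27 in those with proliferation counts (log2 fold change -2.86 ± 0.51, edgeR adjusted p = 6.27e-05). Kif15, a spindle motor, had 0 counts against 3, 2 and 20, at least 10.04-fold lower with 3 counts over the group taken as the floor. Prc1, which bundles midzone microtubules, had 0, 0 and 9 against 12, 6 and 26, and Incenp, the scaffold of the chromosomal passenger complex, had 8, 0 and 6 against 23, 4 and 23. These genes were lower in 3 of 3 tumours. The spindle genes Tpx2 (8 counts in all against 37), Ckap2l (2 against 31) and Aspm (1 against 23), and Cdca2, which steers a phosphatase to chromosomes (2 against 22), were also called. All 8 lower genes held under 20 counts in the proliferation-free barcodes. They reached the 20 counts needed for testing through the class with proliferation counts alone, and Gria4 (43 against 6) through the proliferation-free barcodes alone. The mitosis list stood at 32.1, 30.3 and 41.7 counts per 10000 against 94.6, 164 and 124, in tumour 2 on 6 against 81 counts. In tumour 2 the class with proliferation counts also held 69 myeloid marker counts. That is 140 per 10000, against 3.59 and 2.90 in the same class of tumours 1 and 3.

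**Figure D5:**
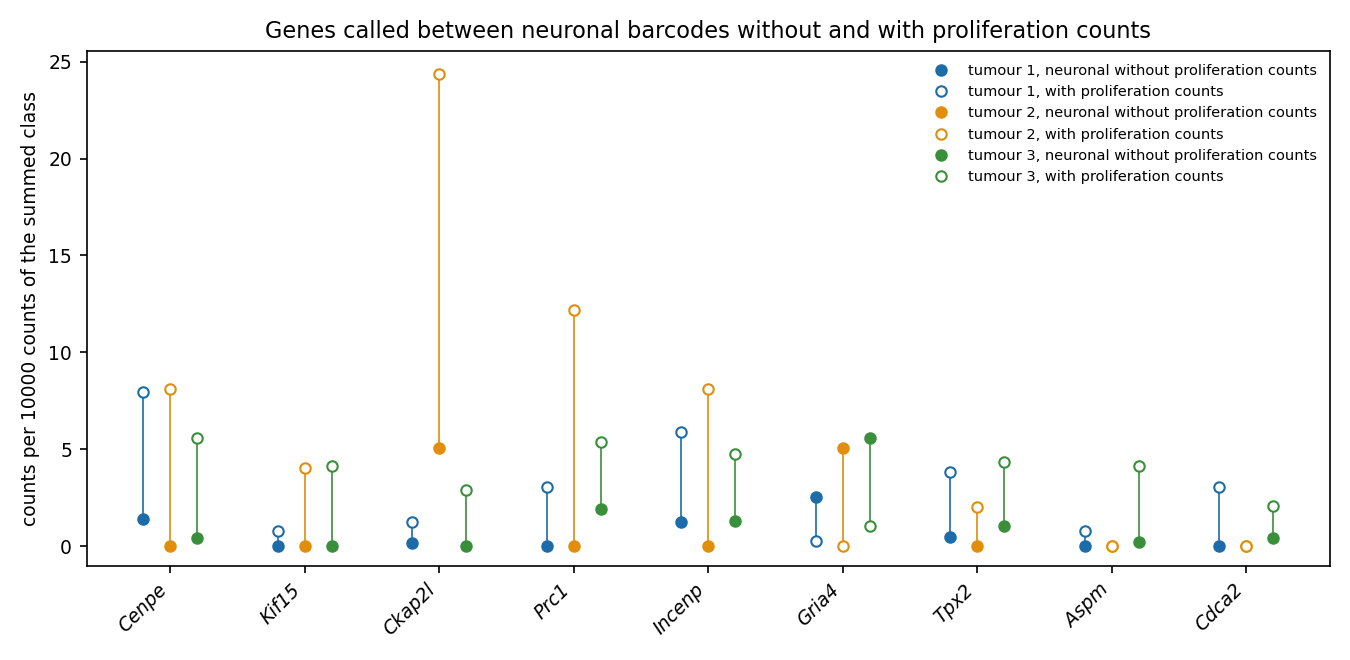
The 9 genes called between neuronal barcodes without (filled circles) and with proliferation counts (open circles), in counts per 10000 of each summed class, by tumour. The 8 mitosis genes lie lower without proliferation counts wherever they were detected and Gria4 lies higher; in tumour 2 a point rests on a few counts.

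Gria4 had 16, 1 and 26 counts against 1, 0 and 5, higher in 3 of 3 tumours (2.63 ± 0.65, edgeR adjusted p = 0.0217). All 16 measured replication genes had negative values (median -1.29) and none passed in edgeR or DESeq2, where 6 and 1 genes had an unadjusted p under 0.05. Of the axon and cytoskeleton list none of 37 passed in either tool (median 0.43, 28 positive), and 12 in edgeR and 0 in DESeq2 had an unadjusted p under 0.05. Map1b, for example, had 201, 8 and 117 counts against 92, 8 and 90 (0.43 ± 0.22, adjusted p = 0.683), and Tubb3 had 48, 1 and 40 against 20, 1 and 14 (1.01 ± 0.38, 0.403). With the classes matched in depth 1 of the 9 calls held, that of Cenpe (-3.50, edgeR adjusted p = 0.00320), while Kif15 and Aspm were then not tested. The other 6 kept their sign, with log2 fold changes such as -3.89 for Ckap2l, 2.83 for Gria4 and -1.75 for Incenp, and did not pass. With any 1 of tumours 1, 2 and 3 left out none of the 9 calls held in this fit, some genes then being too low to test. In the bias-adjusted quasi-likelihood fit of edgeR on tumours 1 and 3, chosen after seeing the data, all 9 were called (adjusted p from 2.99e-07 to 0.00397). That fit also called 4 of 37 axon and cytoskeleton genes and 1 of 24 granule lineage transcription factors as higher.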

How the data were processed

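Single-cell mRNA was measured by Drop-seq (protocol V3.1) after papain dissociation of 3 tumours, as the labels' protocols say. Values deposited by the authors are raw counts per gene (19744) and barcode, and no normalisation is recorded. The tools named in the submitters' processing notes are STAR and Cell Ranger (roles and versions are not given in the sources used here), and the build named there is GRCh38, although the symbols are mouse. Strand use in counting is not given either: of 83 genes called, 20 overlap an exon of another listed gene (GENCODE vM21), among them Arpp21, Gria2, Gria4, Map2, Celf2 and Prc1, so their reads can be shared. The 3 mice are separate samples of 1 group.

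Counts were summed per tumour and class and tested with edgeR 4.0.16 (R 4.3.3, quasi-likelihood, TMM, tumour as a block because both classes come from the same animal), for genes with at least 20 counts over the 6 sums, with Benjamini-Hochberg adjustment over all genes tested and a threshold of 0.05. The 13 rule genes were left out of tests and library totals, and all levels of other genes are per 10000 of these totals. SE is the log2 fold change over the root of its F. Scripts were tested on simulated data. Scrublet called 22, 17 and 9 doublets, of which 3 met the rule; they were kept, and their removal is an alternative. A barcode was called another type with at least 3 counts of at least 2 of its markers. Named genes are the 15 largest changes per direction with the same sign in every tumour, leading and defining members of lists, the rule genes and genes whose call ended under an alternative; Chgb, Gpm6a and the promoters shown were singled out after their values were seen. The barcodes and gene lists were chosen with earlier results of these data known. Alternatives were other scalings, filters, DESeq2 1.42.0, each tumour left out, depth matching, thinning to 200 counts, other limits and other pooling of the spread. Some called genes are not reported here by name. Python 3.11.15 and matplotlib 3.10.9 were used.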

Additional observations from a re-analysis of the deposited data

Results flagged for a closer look

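Barcodes too shallow for the comparisons also met the neuronal, proliferation-free criterion. Counted were barcodes of at least 50 but under 200 counts that passed the mitochondrial limit. Shallow barcodes over that limit were left out, so the shares do not cover all shallow barcodes. The criterion was met by 129 of 7525 in tumour 1 (1.71%), 47 of 1024 in tumour 2 (4.59%) and 171 of 8049 in tumour 3 (2.12%). For scale, a count of 0 would allow up to 0.0399%, 0.293% and 0.0373%. These barcodes entered no test.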

How the results depend on the processing

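Against the reference, 49 genes were higher and 26 lower. Leaving out 1 tumour gave 0 to 99 higher and 0 to 58 lower. The calls therefore rest on tumours 1 and 3 together: the counts were 0 and 1 without tumour 1, 99 and 58 without tumour 2, and 0 and 0 without tumour 3. With no replicate block the counts were 2 and 3, in DESeq2 1 and 2, with no low count filter 23 and 8, at 500 counts per barcode 5 and 10 (tumour 2 then had no neuronal barcode), thinned to 200 counts 10 and 5, without other types 31 and 9, without Scrublet doublets 2 and 2, and with 5 neuronal counts 7 and 12. Classes matched in depth gave 37 and 21 of 1664 genes tested, and Hells, Hspd1, Klc1 and Basp1 were among those that then did not pass. The bias-adjusted quasi-likelihood fit (chosen after seeing the data, as were the next 2) gave 3 and 2. Limited to tumours 1 and 3 it gave 73 and 36, which hold all 49 and 26 genes. Tumours 1 and 3 without other types gave 74 and 45. The prior degrees of freedom, which set how far the spread is pooled over genes, were infinite in the fit reported, 6.46 in the bias-adjusted fit and 7.48 without doublets. RLE size factors gave 39 higher and 42 lower, moved the median log2 fold change to -0.14 and the share of higher calls from 65.3% to 48.1%. Among alternative values of called genes, 771 kept their call, 640 lost it and 6 turned sign: Ctsd (0.20 without other types, 0.19 in tumours 1 and 3), Ctsb (0.085 and 0.14), Ttc3 (-0.078 without tumour 3 and up to 1.05 with another tumour left out) and Sfrp1 (0.16 at 500 counts); the cause was not tested.

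Against neuronal barcodes with proliferation counts, 1 gene was higher and 8 lower. Leaving out 1 tumour gave 0 to 1 higher and 0 to 0 lower. No replicate block gave 0 and 4, plain library totals 2 higher, no low count filter 0 and 2, a minimum of 50 counts 0 and 0, DESeq2 0 and 0 (21 genes at an unadjusted p under 0.05), 500 counts per barcode 0 and 0, a mitochondrial limit of 5% 0 and 1, depth matching 0 and 1, thinning 0 and 0, and 5 neuronal counts 0 and 0. The bias-adjusted fit gave 0 and 1, that fit in tumours 1 and 3 gave 12 and 24, which hold all 9 genes, and tumours 1 and 3 without other types gave 3 higher.

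The mean share of proliferation-free neuronal barcodes was 12.5%. It was 16.1% at a mitochondrial limit of 5%, 5.16% with 5 neuronal counts and 9.09% thinned to 200 counts, and 11.4% to 14.5% with 1 tumour left out. Low depth limits all values: a gene under 20 counts over the 6 sums was not tested. A gene low in 1 class could reach this limit through the other class alone. Against the reference this held, among others, for Hells and Hjurp through the reference. It held for Arpp21, Gria4, Cadm3, Dner, Sez6l2, Myt1 and Kcnj3 through the neuronal barcodes.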
